A study of Homo sapiens with 8 samples.

Results

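A set of 8 genes that mark hematopoietic stem and progenitor cells was followed in U-937, a human pro-monocytic cell line, after exposure to all-trans retinoic acid (ATRA) and vitamin C (L-ascorbic acid, LAA). The 8 genes, MYB, ERG, SOX4, MSI2, BEX1, IGLL1, CD34 and SPINK2, were chosen by symbol from the 61125 rows of the deposited gene table. All 8 were found there, and 6 of them passed the filter on low counts that left 14995 genes for testing. The cells had received 250 µM LAA together with 1 µM ATRA, 1 µM ATRA, 250 µM LAA, or the PBS and DMSO vehicle, in each case for 72 h. Each of the 4 groups had 2 libraries of poly-A-selected RNA, 8 in all. The labels give no genetic change to the line and no separate cultures behind the replicate numbers, so the p-values measure the spread between these libraries, which may be technical.

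In the bone marrow, blood cells mature from stem and progenitor cells that are held in an immature, dividing state by transcription factors such as MYB, ERG and SOX4. The RNA-binding protein Musashi-2 (MSI2) acts on translation in the same cells, and the surface sialomucin CD34 is used to isolate them. Leukemia cells often keep parts of this program, and ATRA, which binds nuclear retinoic acid receptors on DNA, is known for moving leukemic promyelocytes and several myeloid lines towards mature myeloid cells. LAA is a cofactor for iron-dependent dioxygenases, among them the TET enzymes that oxidize methylated cytosine, and how these agents combine in myeloid leukemia cells was the study's subject according to its title.

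Total counts ran from 18462552 to 24166770 per library. Levels are given below as normalised read counts (CPM, relative to the library total after scaling between libraries), and FPKM, the authors' value per kilobase of transcript, is used only to set the level of different genes side by side. A difference is given as a log2 fold change ± standard error (SE). The SE is the size of the log2 fold change divided by the square root of the test's F value. It is approximate, above all for genes with few reads, where it may be too small. A gene was called changed at an adjusted p under 0.05 (edgeR quasi-likelihood test, Benjamini-Hochberg adjustment over all 14995 genes). The first principal component of the libraries held 60.7% of the variance and separated the 4 libraries with ATRA from the 4 without it. In bulk RNA, fewer cells carrying a transcript and less transcript per cell cannot be told apart.

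The identity of the cells was read from marker genes. Of 14 myeloid markers all 14 had counts, and their summed level was 5231 to 5749 CPM with LAA+ATRA, 5785 to 6346 CPM with ATRA, 2676 to 2819 CPM with LAA and 2364 to 2546 CPM in vehicle. The monocyte marker CD14 had 18 counts in all 8 libraries together, and the granule enzyme MPO had 70. The T-cell genes CD3D, CD3E and LCK, the erythroid genes GATA1 and HBB and the endothelial genes CDH5, KDR and EMCN were listed at 0 in every library. Other genes of these lists were detected. Of 10 T and NK cell markers 6 had a count, and their summed level, almost all of it from the granule gene NKG7, was 354 to 365 CPM with LAA+ATRA, 320 to 371 CPM with ATRA, 276 to 294 CPM with LAA and 267 to 280 CPM in vehicle. Of 12 erythroid and megakaryocyte markers 6 had a count, and their sums, mostly from EPOR and KLF1, were 22.4 to 24.99 CPM with LAA+ATRA, 19.5 to 21.1 CPM with ATRA, 20.6 to 23.6 CPM with LAA and 21.6 to 22.1 CPM in vehicle. The endothelial markers matter here because ERG and CD34 are also endothelial genes. Of 10 endothelial markers 7 had a count, and their summed level, almost all of it from PECAM1, EGFL7 and CLDN5, was 130 to 134 CPM with LAA+ATRA, 134 to 142 CPM with ATRA, 96.5 to 98.0 CPM with LAA and 93.2 to 95.4 CPM in vehicle. The myeloid, T and NK cell and endothelial sums were higher in every library with ATRA than in every library without it, and their part in the results on the progenitor genes was not tested. Within the endothelial list PECAM1 averaged 106 CPM with ATRA and 60.9 CPM in vehicle, and CLDN5 10.8 and 6.91 CPM. EGFL7 went the other way, at 18.7 CPM with ATRA and 25.2 CPM in vehicle.

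Promoters of 4 of the genes are shown because these genes cover the responses seen below: IGLL1, which fell most with ATRA, MYB and BEX1, which fell less, and SOX4, which was not called. Each is the 300 bases from 250 before to 50 after the RefSeq transcription start on GRCh38.p14, written 5′ to 3′ on the strand of the gene. Capitals mark the retinoic acid receptor core motif (AGGTCA), MYB motifs (CAACTG or CAACGG, or the same letters beginning with T instead of C) and the PU.1 and ETS motif (AGGAAG), each also on the other strand. The windows are chr22:23580241-23580540 on the minus strand for IGLL1, chr6:135181058-135181357 on the plus strand for MYB, chrX:103064122-103064421 on the minus strand for BEX1 and chr6:21593501-21593800 on the plus strand for SOX4, whose RefSeq start lies inside the GENCODE gene.
IGLL1: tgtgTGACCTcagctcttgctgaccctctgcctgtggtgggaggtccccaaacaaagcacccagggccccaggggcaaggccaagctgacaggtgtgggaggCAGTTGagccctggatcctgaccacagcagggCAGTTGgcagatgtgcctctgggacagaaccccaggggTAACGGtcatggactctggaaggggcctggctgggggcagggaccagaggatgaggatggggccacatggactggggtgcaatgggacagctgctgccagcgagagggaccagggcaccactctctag
MYB: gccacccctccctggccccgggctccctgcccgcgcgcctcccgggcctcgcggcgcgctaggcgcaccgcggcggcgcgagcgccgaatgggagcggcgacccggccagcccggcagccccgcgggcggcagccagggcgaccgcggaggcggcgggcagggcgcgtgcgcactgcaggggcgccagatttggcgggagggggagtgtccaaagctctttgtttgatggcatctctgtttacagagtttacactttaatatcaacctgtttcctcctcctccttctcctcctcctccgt
BEX1: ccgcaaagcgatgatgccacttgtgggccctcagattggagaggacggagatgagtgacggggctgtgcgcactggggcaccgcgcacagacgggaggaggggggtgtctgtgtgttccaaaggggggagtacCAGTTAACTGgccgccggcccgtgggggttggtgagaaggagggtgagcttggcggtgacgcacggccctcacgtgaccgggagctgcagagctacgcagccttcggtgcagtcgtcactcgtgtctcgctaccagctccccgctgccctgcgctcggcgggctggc
SOX4: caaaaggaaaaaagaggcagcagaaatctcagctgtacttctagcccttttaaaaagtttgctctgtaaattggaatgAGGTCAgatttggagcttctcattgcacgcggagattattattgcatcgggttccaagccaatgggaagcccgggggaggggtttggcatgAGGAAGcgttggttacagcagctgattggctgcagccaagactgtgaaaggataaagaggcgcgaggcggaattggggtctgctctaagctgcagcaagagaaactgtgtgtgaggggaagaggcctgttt

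The IGLL1 window held 1 retinoic acid receptor core motif, read as TGACCT on this strand, and 3 MYB motifs, CAGTTG at 2 places and TAACGG at another. The BEX1 window held 2 MYB motifs that overlap in the letters CAGTTAACTG, which read the same on both strands. The SOX4 window held 1 core motif and 1 AGGAAG, and the MYB window held none of the letters searched. Among 34943 RefSeq promoter windows of this length, 13.8% held the core motif, 25.7% a MYB motif and 33.7% AGGAAG, so any of these matches is common. They are matches of letters, and no binding was measured in these samples.

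Before comparing treatments, the levels of the 8 genes were set in order by FPKM, the scale that allows genes of different length to be compared. In vehicle cells BEX1 averaged 361 FPKM, MYB 147 FPKM and IGLL1 71.5 FPKM, at ranks 318, 794 and 1593 of 21319 genes above 0. SOX4 followed with 14.0 FPKM, MSI2 with 8.84 FPKM and ERG with 1.67 FPKM. These 6 averages are separated by more than the spread of the 2 vehicle libraries of each gene. CD34 and SPINK2 were listed at 0 in vehicle. With ATRA the order changed at 1 place: BEX1 at 256 FPKM and MYB at 103 FPKM stayed at the top, while IGLL1 at 0.505 FPKM stood beside ERG at 0.469 FPKM, a difference smaller than the spread of the 2 IGLL1 libraries.

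**Figure D1:**
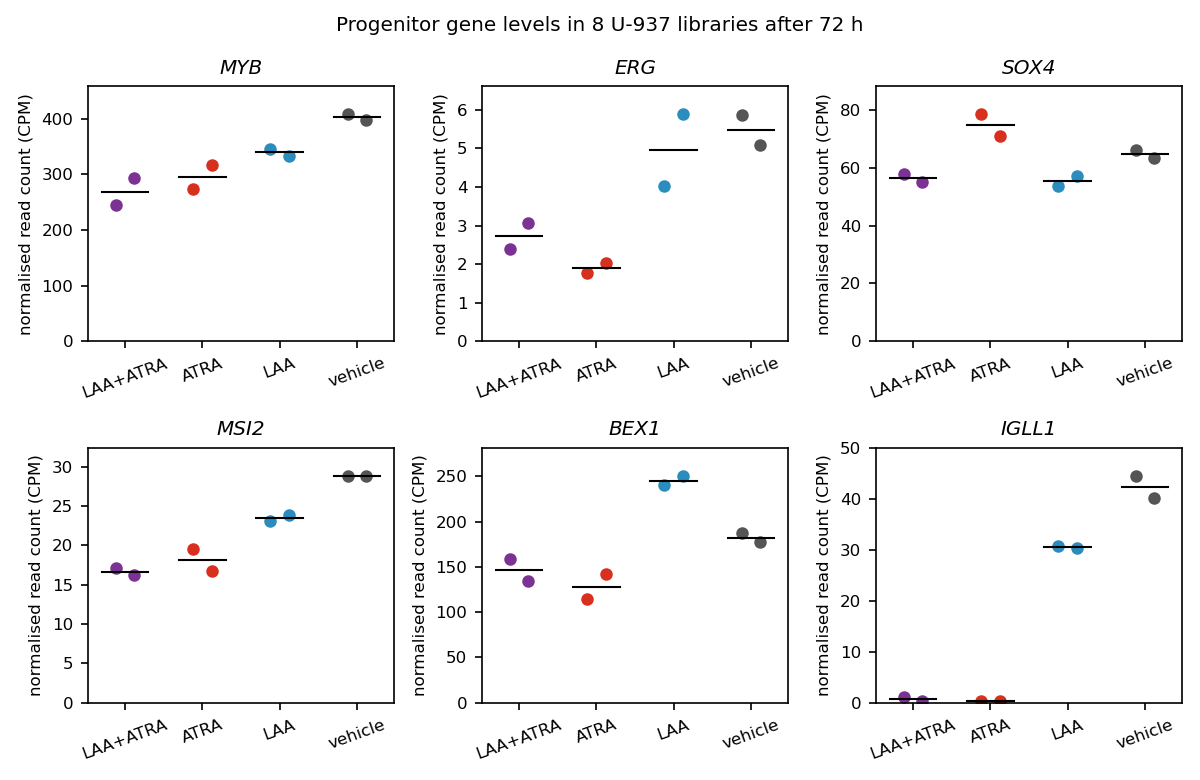
Normalised read count (CPM, linear axis from 0) of the 6 genes with counts enough for testing, with 1 point per library and a bar at the mean of the 2 libraries of LAA+ATRA, ATRA, LAA and vehicle. MYB, ERG, MSI2, BEX1 and IGLL1 are lower in all 4 libraries with ATRA than in all 4 without it. Of all tested genes 21.6% are lower and 21.9% higher in the same way. IGLL1 lies between 0.277 and 1.12 CPM in the 4 libraries with ATRA, against 30.4 to 44.6 CPM in the 4 without it.

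ATRA lowered 5 of the 6 tested progenitor genes and raised none. IGLL1 was 132-fold lower with ATRA than in vehicle, ERG 2.87-fold, MSI2 1.59-fold, BEX1 1.42-fold and MYB 1.364-fold lower, while SOX4 was not called. ATRA changed much of the transcriptome: of all tested genes 42.9% were called, 21% lower and 21.9% higher. The median log2 fold change of the 6 genes was -0.59, against -0.0036 for all tested genes. The genes were chosen with earlier results of these data known, so this contrast is a description and not independent evidence.

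MYB encodes the c-Myb transcription factor, which keeps progenitors dividing and recruits the coactivators CBP and p300. The gene lies on chromosome 6 at positions 135181315 to 135219173 of GRCh38 (GENCODE 29, plus strand, 42 annotated transcripts). It had 245 and 293 CPM with LAA+ATRA, 274 and 317 CPM with ATRA, 346 and 334 CPM with LAA and 408 and 397 CPM in vehicle. All 4 libraries with ATRA were below all 4 without it, as for 21.6% of all tested genes (21.9% were above), and LAA alone lay between ATRA and vehicle. Both ATRA libraries lay below both vehicle libraries for 35.9% of all tested genes, and above them for 36%. With ATRA the log2 fold change over vehicle was -0.45 ± 0.11 (adjusted p = 0.00641, edgeR quasi-likelihood test). That call was lost without ATRA replicate 1, where the change was -0.34 with an adjusted p of 0.0507, and without vehicle replicate 1, where it was -0.43 with an adjusted p of 0.0553. MYB remained among the more abundant transcripts of the cells, at rank 1210 of 21322 genes above 0 in FPKM with ATRA.

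ERG, an ETS-family factor that sustains stem cells and is also a factor of endothelium and megakaryocytes, lies on chromosome 21 at positions 38380027 to 38661780 (minus strand). It had 2.40 and 3.07 CPM with LAA+ATRA, 1.77 and 2.03 CPM with ATRA, 4.02 and 5.88 CPM with LAA and 5.87 and 5.09 CPM in vehicle. The 4 libraries with ATRA were below the 4 without it, again as for 21.6% of all tested genes, at levels of 32 to 122 counts per library. The change with ATRA was -1.52 ± 0.29 (adjusted p = 0.00114), and it was called in all 17 other settings and left-out libraries tried. The part of endothelial and megakaryocyte markers, whose sums are given above, was not tested.

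SOX4, a high-mobility-group transcription factor of early hematopoietic and lymphoid cells, lies on chromosome 6 at positions 21592768 to 21598619 (plus strand, 1 annotated transcript). It had 57.9 and 55.1 CPM with LAA+ATRA, 78.5 and 70.9 CPM with ATRA, 53.8 and 57.3 CPM with LAA and 66.0 and 63.3 CPM in vehicle. ATRA alone gave the 2 highest libraries, and its change over vehicle was 0.21 ± 0.10 without a call (adjusted p = 0.112). SOX4 was thus the 1 tested gene of the group whose value with ATRA was above vehicle. In 17 other settings the change lay between 0.14 and 0.28 and was never called.

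MSI2, the RNA-binding protein that represses or stabilizes target messages in stem cells, lies on chromosome 17 at positions 57255851 to 57684685 (plus strand, 19 annotated transcripts). It had 17.1 and 16.2 CPM with LAA+ATRA, 19.5 and 16.8 CPM with ATRA, 23.1 and 23.9 CPM with LAA and 28.8 and 28.8 CPM in vehicle. In CPM the 4 groups ran downward from vehicle through LAA to the 2 groups with ATRA, which overlapped each other. All 4 libraries with ATRA were below all 4 without it, as for 21.6% of all tested genes. Both LAA libraries were below both vehicle libraries, as for 27.4% of all tested genes. That change was not called (adjusted p = 0.214, edgeR quasi-likelihood test). The change with ATRA was -0.67 ± 0.12 (adjusted p = 0.000871).

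The MSI2 result depended on the transcript length behind the counts. Dividing the deposited count by the deposited FPKM, and the quotient by a scale factor for each library, gives the relative length implied for a gene. The factor was the median over genes with at least 100 counts in every library. For MSI2 this length, relative to its mean over libraries, was 1.13 and 0.758 in the LAA+ATRA libraries, 0.904 and 0.924 in the ATRA libraries, 1.18 and 1.12 in the LAA libraries and 0.969 and 1.09 in vehicle. The highest was 1.56 times the lowest, a wider range than for 87.9% of the 9610 genes with at least 100 counts in every library, whose median was 1.18. With these lengths in the fit, the change with ATRA was -0.51 and was not called (adjusted p = 0.0587), nor was it on FPKM. In FPKM, MSI2 averaged 5.68 ± 1.47 with LAA+ATRA, 6.24 ± 0.74 with ATRA, 6.32 ± 0.40 with LAA and 8.84 ± 0.75 in vehicle (SD, n = 2 each). On this scale the LAA libraries overlapped those of both groups with ATRA. ERG had a range of 1.65, and MYB, SOX4, BEX1 and IGLL1 had ranges of 1.10, 1.03, 1.05 and 1.15.

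**Figure D2:**
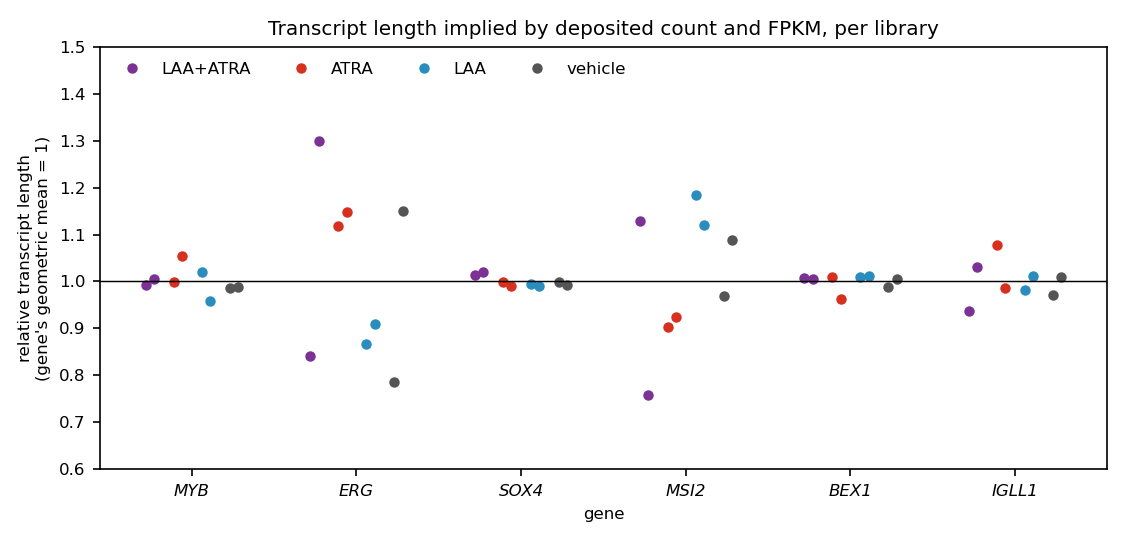
Transcript length implied by the deposited count and FPKM in each library after scaling between libraries, divided by the gene's geometric mean over the 8 libraries (linear axis). There is 1 point per library, coloured by LAA+ATRA, ATRA, LAA and vehicle. The points of MSI2 and ERG spread over ratios of 1.56 and 1.65 between the highest and the lowest library, while those of SOX4 and BEX1 lie within 1.03 and 1.05.

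BEX1, a small brain-expressed X-linked adaptor protein that also occurs in hematopoietic precursors, lies on chromosome X at positions 103062651 to 103064240 (minus strand, 1 annotated transcript). It had 159 and 134 CPM with LAA+ATRA, 114 and 142 CPM with ATRA, 240 and 251 CPM with LAA and 187 and 178 CPM in vehicle. Its 2 LAA libraries were the highest of the 8, and all 4 libraries with ATRA lay below the 4 without it, which held for 21.6% of all tested genes. The change with ATRA was -0.51 ± 0.12 (adjusted p = 0.00484), and the call was lost only on FPKM without a filter among 17 other settings. Of its transcript's 31-base words 12.5% also occur in other genes, most of them in BEX2, which was listed at 0 in every library.

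IGLL1 encodes the λ5 protein, which pairs with VpreB as the surrogate light chain of the pre-B-cell receptor. The gene lies on chromosome 22 at positions 23573125 to 23580308 (minus strand). It had 1.12 and 0.302 CPM with LAA+ATRA, 0.277 and 0.345 CPM with ATRA, 30.7 and 30.4 CPM with LAA and 44.6 and 40.2 CPM in vehicle. In reads this was 20 and 6 counts with LAA+ATRA, 5 and 8 counts with ATRA, 619 and 578 counts with LAA and 926 and 829 counts in vehicle. Every library with ATRA was at least an order of magnitude below every library without it. The log2 fold change with ATRA was -7.05 ± 0.31 (adjusted p = 7.57e-09), the 17th lowest of the 14995 tested genes, and IGLL1 was called in all 17 other settings. IGLL1 passed the low-count filter only through its LAA and vehicle libraries, so its call and rank are not independent of that filter. The same holds for its calls with LAA+ATRA against vehicle and against LAA below. Some of its 31-base words, 20.4%, also occur in other genes, most of them in the locus AL022324.4, which was listed at 0 throughout.

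The gene for the partner of λ5 ran in the opposite order. VPREB1, the other chain of the surrogate light chain, had 10 and 12 counts with LAA+ATRA, 7 and 8 counts with ATRA, 0 and 1 counts with LAA and 0 and 0 counts in vehicle. Its mean was 5.05 times a floor of 3 counts over the vehicle group with ATRA, and 8.02 times that floor with LAA+ATRA. These values leave out the counting error of the libraries with ATRA, and no library exceeded 1 CPM. VPREB1 passed the low-count filter only through the libraries with ATRA, so its edgeR call (adjusted p = 0.012) is not independent of that filter, and it was lost when either vehicle library was left out (adjusted p = 0.0817 and 0.0794). IGLL5, a relative of IGLL1, was at 0 in every library.

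B-lymphoid genes were examined beside IGLL1, since its usual home is the early B cell. Of 15 such markers 13 had a count in some library, and MS4A1 and TCL1A had none. Their summed level was 37.1 to 38.4 CPM with LAA+ATRA, 36.2 to 37.2 CPM with ATRA, 41.8 to 44.1 CPM with LAA and 45.9 to 52.0 CPM in vehicle, and its part in the IGLL1 result was not tested. The B-lineage factor PAX5 fell with ATRA by 1.10 ± 0.21 on the log2 scale (adjusted p = 0.000972), with 6.25 and 4.23 CPM with ATRA against 10.3 and 12.1 CPM in vehicle. The PAX5 call was lost on FPKM. EBF1, another B-lineage factor, fell by 1.11 ± 0.38 (adjusted p = 0.0302), a call lost with DESeq2, with length offsets (-0.85), on FPKM without the filter (-0.32), with only the libraries compared, and without either ATRA library or vehicle replicate 2 (-0.58). The signalling adaptor BLNK, at 10.1 and 7.72 CPM with ATRA and 10.3 and 11.2 CPM in vehicle, was not called.

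CD34 and SPINK2 were not detected at a level that allowed a test. SPINK2, a serine protease inhibitor gene on chromosome 4 at positions 56809860 to 56821742 (minus strand), had 0 counts in all 8 libraries. CD34, on chromosome 1 at positions 207880972 to 207911402 (minus strand), had 1 and 1 counts with LAA+ATRA, 0 and 3 counts with ATRA and 0 counts in the LAA and vehicle libraries. A count of 0 allows up to 3 counts, which is 0.129 to 0.168 CPM depending on the library, for counting error only. The observed CD34 counts were at or below 3 in every library. For counts above 0 counting error allows a higher limit, and no fold is given. Of the CD34 family, endomucin (EMCN) was at 0, while podocalyxin (PODXL) was present and fell by 1.85 ± 0.16 on the log2 scale with ATRA (adjusted p = 1.81e-06), with 12.6 and 10.4 CPM with ATRA and 44.2 and 38.4 CPM in vehicle.

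LAA alone changed none of the 6 genes by the test used. Only 4 of all 14995 genes were called with LAA against vehicle, 0.0267%, although 2833 genes, 18.9%, had an unadjusted p under 0.05. Among the 6 genes BEX1 had 0.43 ± 0.12 on the log2 scale (adjusted p = 0.0972) and IGLL1 -0.47 ± 0.18 (adjusted p = 0.188). MYB had -0.24 ± 0.11, MSI2 -0.30 ± 0.12, SOX4 -0.22 ± 0.10 and ERG -0.15 ± 0.27, with adjusted p-values between 0.214 and 0.826. Both LAA libraries were above both vehicle libraries for BEX1 and below them for IGLL1, MYB, SOX4 and MSI2, and they overlapped for ERG. Libraries that do not overlap are common at this sample size: 27.4% of all tested genes were lower and 28.6% higher in both LAA libraries than in both vehicle libraries. BEX1 was called in 5 of 17 other settings, with DESeq2 (adjusted p = 0.0139), when low counts were kept (adjusted p = 0.0111), with only the LAA and vehicle libraries in the fit (adjusted p = 0.00124), and without ATRA replicate 1 or 2 (adjusted p = 0.0421 and 0.0452). With only the LAA and vehicle libraries in the fit, MYB (adjusted p = 0.0177) and IGLL1 (adjusted p = 0.00479) were called lower too.

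Adding LAA to ATRA left the 6 genes without a call as well. In this comparison 152 genes were called, 1.01% of those tested, with 0.493% higher and 0.52% lower. Before adjustment, 2782 genes had a p under 0.05. SOX4 had -0.40 ± 0.10 on the log2 scale (adjusted p = 0.0696): both LAA+ATRA libraries were below both ATRA libraries, as for 22.9% of all tested genes. It was called with DESeq2 (adjusted p = 0.0168) and when low counts were kept (adjusted p = 0.0295). ERG was 0.52 ± 0.30 (adjusted p = 0.382), with both LAA+ATRA libraries above both ATRA libraries, as for 21.2% of all tested genes. MYB, MSI2 and BEX1 had -0.14 ± 0.11, -0.12 ± 0.13 and 0.19 ± 0.12 in libraries that overlapped. IGLL1 had 1.12 ± 0.54 (adjusted p = 0.293), a value that came from LAA+ATRA replicate 1, with 20 counts: without this library it was -0.06.

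The combination was also set against the cells without ATRA. Against vehicle, 4 of the 6 genes were called lower, IGLL1 (-5.93 ± 0.28, adjusted p = 1.64e-08), ERG (-0.998 ± 0.28, adjusted p = 0.0126), MSI2 (-0.79 ± 0.12, adjusted p = 0.000273) and MYB (-0.58 ± 0.11, adjusted p = 0.00116), where 44.7% of all tested genes were called, 21.5% lower and 23.1% higher. Both libraries lay below both vehicle libraries for 36.6% of all tested genes and above them for 37.2%. BEX1 was just outside the threshold at -0.32 ± 0.12 (adjusted p = 0.0508) and was called in 7 of 17 other settings. SOX4 had -0.20 ± 0.10 (adjusted p = 0.132). ERG lost its call without LAA+ATRA replicate 1 (adjusted p = 0.0759) or vehicle replicate 1 (adjusted p = 0.0799), and on FPKM.

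Against LAA, 5 genes were called lower with LAA+ATRA, where 36.4% of all tested genes were called, 18% lower and 18.4% higher. Both LAA+ATRA libraries were below both LAA libraries for 34.4% of all tested genes and above them for 34.3%. These were IGLL1 (-5.45 ± 0.28, adjusted p = 4.07e-08), ERG (-0.85 ± 0.28, adjusted p = 0.0343), BEX1 (-0.74 ± 0.12, adjusted p = 0.000484), MSI2 (-0.49 ± 0.12, adjusted p = 0.00821) and MYB (-0.34 ± 0.11, adjusted p = 0.0324). SOX4 was at 0.02 ± 0.10. The MYB call was lost without LAA+ATRA replicate 1 (-0.20), without either LAA or either vehicle library, and on FPKM without the filter (adjusted p = 0.0782). The ERG call was lost without LAA+ATRA replicate 1 (-0.67) or LAA replicate 2 (-0.55), with DESeq2, on FPKM and with only the libraries compared. MSI2 lost its call with the implied lengths in the fit (-0.17, adjusted p = 0.546), on the 3 FPKM scales (-0.15 to -0.18) and without LAA replicate 2 (-0.47, adjusted p = 0.06).

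Whether ATRA acted differently with and without LAA was tested as an interaction, the change with ATRA in the presence of LAA minus the change in its absence. None of the 6 genes was called, and 1 gene of all 14995 was, 0.00667%. IGLL1 had the largest value of the 6, 1.59 ± 0.57, with an unadjusted p of 0.0161 and an adjusted p of 0.869, and without LAA+ATRA replicate 1 it was 0.42. ERG had 0.67 ± 0.41, and the other 4 genes lay between -0.23 and 0.18. The 3 comparisons against vehicle share the same vehicle libraries, so their values are given side by side and not as repeats of each other.

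**Figure D3:**
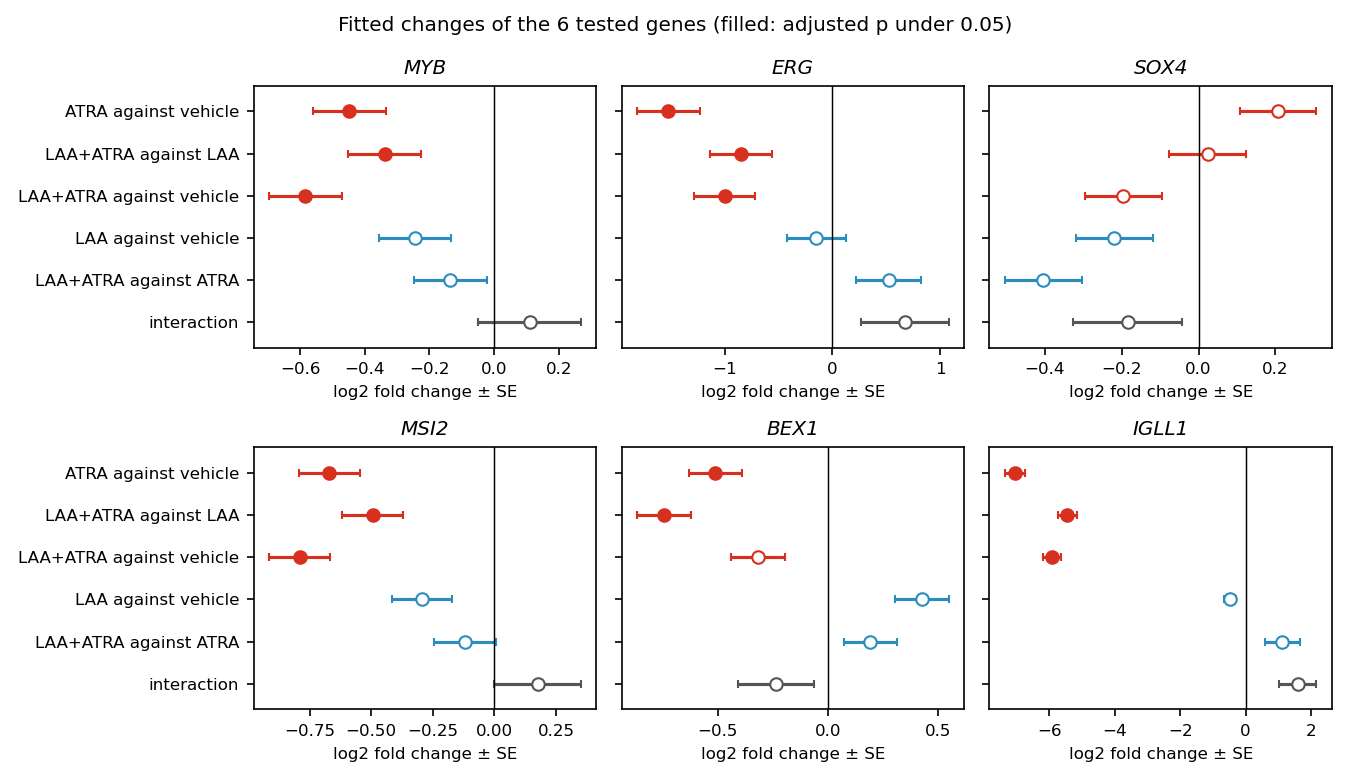
Log2 fold change ± SE of the 6 tested genes in the 5 comparisons and the interaction (linear axis, a different range for each gene), with filled points for an adjusted p under 0.05. Filled points occur only in the comparisons of libraries with ATRA against libraries without it, and SOX4 has none.

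Other genes of the progenitor program were then counted. The 17-gene leukemia stem cell score, which includes CD34, is a set used for prognosis in acute myeloid leukemia. With ATRA against vehicle 9 of its genes were tested, of which 6 fell and 2 rose. Over all tested genes 21% were called lower and 21.9% higher. The D-type cyclin kinase CDK6 fell by 1.497 ± 0.11 on the log2 scale, with 69.7 and 69.4 CPM with ATRA and 206 and 187 CPM in vehicle. The cytoskeletal protein gene DPYSL3 fell by 3.50 ± 0.40, and the small membrane protein gene SMIM24 by 1.31 ± 0.16. AKR1C3, an aldo-keto reductase that acts on steroids, prostaglandins and retinal, rose by 4.16 ± 0.37, with 6.03 and 7.94 CPM with ATRA and 0.241 and 0.534 CPM in vehicle. The list's median was -1.31, and its BEX-family member BEX3 was at 0 throughout.

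Among 25 transcription factors of stem and progenitor cells 20 were tested, of which 6 fell and 3 rose with ATRA, close to the 42.9% called among all tested genes. MYC, a driver of growth and ribosome production, fell by 2.37 ± 0.11 (adjusted p = 1.11e-08), with 75.7 and 69.9 CPM with ATRA and 390 and 361 CPM in vehicle. BCL11A, a zinc-finger repressor active in B-lymphoid and erythroid development, fell by 2.16 ± 0.13, with 14.9 and 12.2 CPM with ATRA and 62.5 and 58.3 CPM in vehicle. NFE2 rose by 1.07 ± 0.14 and RUNX1 by 0.63 ± 0.11, and the RUNX1 call was lost on FPKM and with the implied lengths in the fit. The median of the 20 was -0.13, the other 11 tested factors were not called, and TAL1 and MYCN were at 0.

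Of 19 genes for progenitor surface proteins 14 were tested, of which 6 rose and 3 fell, with a median of 0.45. For all tested genes the shares were 21.9% higher and 21% lower. CD38, an ectoenzyme that appears as progenitors leave the most primitive CD34+ stage and a known retinoid-induced gene, rose by 6.97 ± 0.16 (adjusted p = 1.28e-10), with 253 and 227 CPM with ATRA and 1.68 and 2.13 CPM in vehicle. The GM-CSF receptor chains CSF2RA and CSF2RB rose by 1.08 ± 0.14 and 1.14 ± 0.14, and the sialic-acid-binding receptor CD33 by 0.54 ± 0.10. The stem-cell receptors KIT and FLT3 were at or below 3.75 CPM in every library and were not called, and PROM1 was at 0. In the same comparison 11 of 13 tested myeloid markers rose, among them the integrin subunit ITGAM by 3.67 ± 0.15 and the lysosomal glycoprotein CD68 by 2.91 ± 0.12.

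Genes tied to MYB and MSI2 were listed separately. Of 16 MYB relatives, coactivators and reported targets 15 were tested, of which 5 fell and none rose with ATRA: MYC, CDK6, the survival gene BCL2 (-1.73 ± 0.16), the cyclin gene CCNA1 (-0.84 ± 0.12) and the MYB paralog MYBL2 (-0.34 ± 0.11). Among all tested genes 21% fell and 21.9% rose. The coactivator genes CREBBP and EP300 had 0.10 ± 0.14 and 0.14 ± 0.14 and were not called. Of 10 reported Musashi targets or partners 9 were tested, with 5 lower and 3 higher. The cyclin-dependent kinase inhibitor CDKN1A rose by 2.71 ± 0.15, with 34.2 and 30.6 CPM with ATRA and 5.29 and 4.56 CPM in vehicle, and the Notch ligand JAG1 and the RNA-binding partner SYNCRIP fell by 0.96 ± 0.16 and 0.53 ± 0.10. NUMB, a reported Musashi target, had -0.03 ± 0.11.

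Most sequence relatives of the 8 genes were not detected, and of 22 relatives 8 were tested, with 2 higher and 3 lower with ATRA. The shares over all tested genes were 21.9% higher and 21% lower. MSI1, SOX11, FEV, BEX2, BEX3, BEX5, SPINK1 and SPINK4 were at 0 in every library, so MSI2 and BEX1 were the detected members of their families apart from 1 count of BEX4. SOX12, the group C relative of SOX4, fell by 1.09 ± 0.13 with 83.7 and 64.5 CPM with ATRA and 162 and 152 CPM in vehicle, where SOX4 was not called. FLI1, the ETS factor closest to ERG, had 152 and 148 CPM with ATRA and 162 and 168 CPM in vehicle and was not called (-0.14 ± 0.09).

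**Figure D4:**
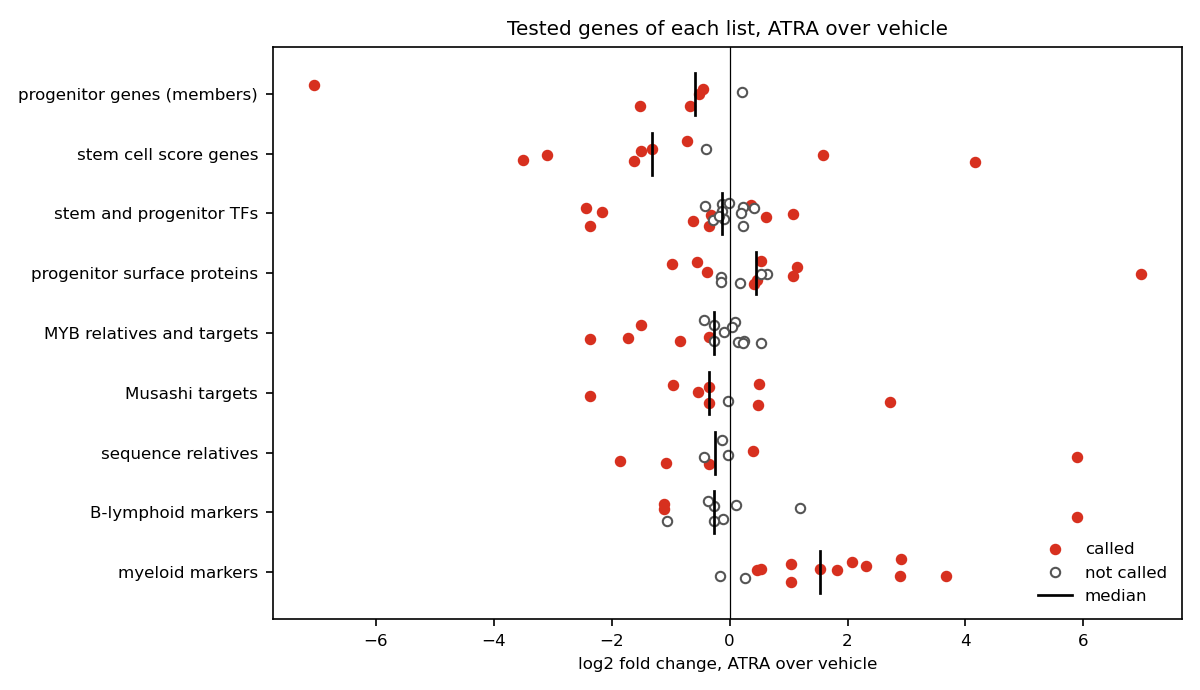
Log2 fold change of ATRA over vehicle (linear axis) for the tested genes of each list, 1 point per gene, filled where the adjusted p was under 0.05, with a bar at the list's median. The 6 tested progenitor genes have a median of -0.59 with 5 filled points below 0. The stem cell score genes have a median of -1.31 and the myeloid markers a median of 1.53. Over all tested genes 21% were called lower and 21.9% higher. The lists were chosen with earlier results of these data known. In the sequence relatives and the B-lymphoid markers the point farthest to the right is VPREB1, whose position depends on the prior count because vehicle had 0 counts.

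Few genes of these lists were called when LAA was added to ATRA, and few were called among all tested genes (1.01%). The leukocyte phosphatase PTPRC fell by 0.65 ± 0.10 with LAA+ATRA against ATRA (adjusted p = 0.0194), with 113 and 107 CPM with LAA+ATRA and 171 and 173 CPM with ATRA. The integrin subunit ITGB2 fell by 0.58 ± 0.12 (adjusted p = 0.0491). Both calls were lost on FPKM, with the implied lengths in the fit, with only the libraries compared and without either LAA library. The ITGB2 call was also lost without either vehicle library, LAA+ATRA replicate 2 or ATRA replicate 1, and with the replicate block (adjusted p = 0.0767). No other gene of the lists was called in that comparison. With LAA against vehicle the lists had 0 called genes, where 0.0267% of all tested genes were called.

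Genes whose level ran most like each progenitor gene over the 8 libraries were found by Pearson's r of log2 CPM among 10651 genes with at least 5 CPM in their highest group. The points share their libraries and treatments, and the values are a description. MYB was most like POGLUT3 (r = 0.995), CTDSPL2 (0.992) and DESI2 (0.991). MSI2 was most like the aminopeptidase N gene ANPEP (r = 0.998), STK24 (0.997) and LBH (0.996). ERG was most like the replication checkpoint genes CHEK1 (r = 0.991) and RPA1 (0.987) and the centriole kinase gene PLK4 (0.984). BEX1 was most like the tubulin gene TUBB3 (r = 0.991), PHB2 (0.991) and MRPL38 (0.987). SOX4 was most like PARP4 (r = 0.988), ADAM17 and BRPF3 (0.976 each), and IGLL1 was most like CLNS1A and ASS1 (0.997 each) and USP18 (0.996).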

How the data were processed

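Poly-A-selected RNA of 8 U-937 libraries was sequenced, and the submitters' processing notes name Salmon 1.8.0, DESeq2 1.36.0 and GRCh38 without their roles. The annotation, index and strand setting are not given in sources used here. The table of estimated counts deposited by the authors, whose totals differ between libraries, and the authors' deposited FPKM values were used. Counts were rounded, which changed 16.5% of values. Using edgeR 4.0.16 in R 4.3.3, genes were filtered with filterByExpr, scaled by TMM and fitted with 4 group means over all 8 libraries by the quasi-likelihood method (4 residual and 8.2 prior degrees of freedom). P-values were two-sided and adjusted over 14995 genes within each comparison. Steps were tested on simulated data.

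Members and gene lists were chosen with earlier results of these data known. Named genes were the 8 members, of each list the 4 called genes with the lowest adjusted p (else the 2 with most counts), and the 3 most alike per member; other list genes named were chosen after their values were seen. Rows naming several symbols, 202, took the first. Gene IDs were matched without version to GENCODE 29. Promoters came from RefSeq (GRCh38.p14), which matched all 8 members in 13 windows. Alternatives were DESeq2 1.42.0, RLE scaling, no filter, a replicate block, limma 3.58.1 on log2(FPKM + 1) or log2(FPKM + 0.1) of genes averaging at least 1 FPKM, implied length offsets, only the libraries compared, and each library left out.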

Additional observations from a re-analysis of the deposited data

How the results depend on the processing

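Of 605 values of the 6 tested genes under 17 other settings, 550 kept direction and call, 31 lost the call, 16 gained it and 8 turned direction, all 8 of them values that were not called. SOX4 for LAA+ATRA against LAA became -0.0118 on log2(FPKM + 1) with and without the filter, -0.0126 on log2(FPKM + 0.1), -0.01998 with length offsets and -0.0197 without LAA replicate 1 (up to 0.0689 when other libraries were left out). IGLL1 for LAA+ATRA against ATRA became -0.0644 without LAA+ATRA replicate 1 (up to 1.81), the MYB interaction -0.0252 without LAA+ATRA replicate 2 (up to 0.24), and ERG for LAA against vehicle 0.101 without LAA replicate 1 (down to -0.448).

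Counts of called genes moved by more than 1.5 times as follows, and the cause was not tested. For LAA against vehicle the 4 genes became 681 with DESeq2, 828 without the filter, 2 on log2(FPKM + 1), 7 on FPKM without the filter, 0 with length offsets and 2187 with only the libraries compared. For LAA+ATRA against ATRA the 152 genes became 672, 903, 6, 27, 15 and 15 in the same order, and 4 on log2(FPKM + 0.1). The 1 interaction gene became 13 with DESeq2, 136 without the filter, and 2, 3 and 10 on the FPKM scales. FPKM without the filter gave 4163 genes for ATRA and 4334 for LAA+ATRA against vehicle and 3352 for LAA+ATRA against LAA. The members called lower were then 3, 2 and 2, and 3 for LAA+ATRA against LAA on either filtered FPKM scale. For LAA against vehicle 1 member was called higher with DESeq2, without the filter and with only the libraries compared, which also called 2 lower; for LAA+ATRA against ATRA 1 was called lower with DESeq2 and without the filter.

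Leaving out each library in turn gave 4461 to 6632 genes for ATRA against vehicle, 0 to 469 for LAA against vehicle, 4526 to 7144 for LAA+ATRA against vehicle, 6 to 172 for LAA+ATRA against ATRA, 3660 to 5872 for LAA+ATRA against LAA and 1 to 15 for the interaction; the group's remaining library was then assumed to vary like the others. Members called lower were 4 to 5, 0 to 0, 3 to 5, 0 to 0 and 2 to 5 in the 5 comparisons, and 0 to 1 were called higher with LAA. Replicate differences correlated little between groups (-0.0727 to 0.0771). This shows no strong shared shift but cannot exclude that the replicate numbers pair the samples. A fit with the replicate block called 2 genes for LAA against vehicle and 30 for LAA+ATRA against ATRA. Depth limits CD34 and SPINK2, which stayed at or under 3 counts, and makes IGLL1 with ATRA and ERG values of few reads. The IGLL1 comparison of LAA+ATRA with ATRA could not be made with only those libraries, since IGLL1 did not pass the filter there.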
